A study of Mus musculus and Homo sapiens with 16 samples.

Results

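The complement genes C1qa, C1qb, C1qc, C1ra, C2, C3, C4b, Cfb and Serping1 were followed through all 10 RNA libraries of a study of the transcription factor KLF5 in mouse skin. These 9 genes were found by symbol among the 39179 genes of the count tables. They were proposed with genotype results of these libraries in view, among them the low level of C4b in the unsorted Klf5-/- epidermis, so their genotype values in that set are a description and carry no test. The study sequenced RNA from C57BL/6 skin epithelium of 2 genotypes. The first set held 3 Klf5-/- libraries and 3 Klf5+/- libraries from E17.5 embryos, with peeled epidermis dissociated by trypsin and sorted for cells that were DAPI-, CD45- and integrin alpha 6 positive. The other set, titled HFD, an abbreviation the labels leave unexpanded, held 2 Klf5-/- libraries and 2 Klf5+/- libraries of peeled, unsorted epidermis ground in liquid nitrogen. The labels give no age or stage for the HFD set, no promoter or Cre for the deletion, and no statement that libraries came from separate animals, so p-values rest on variation among libraries that could be technical in origin. Peak lists of KLF5, of the active-chromatin mark H3K27ac and of open chromatin (ATAC-seq) came from sorted E17.5 epithelium labelled wild type, with 1 library for each assay. The ATAC library is titled Het although its genotype label reads wild type.

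Complement is a cascade of plasma proteases and their cofactors that tags surfaces for removal. In the classical pathway C1q, a bundle of C1qa, C1qb and C1qc chains made mainly by macrophages, binds a surface and activates the serine proteases C1r and C1s, which cut C4 and C2 into the convertase that cleaves C3. In the alternative pathway factor B (Cfb) takes the place of C2, and Serping1 encodes the C1 inhibitor that shuts off C1r and C1s. Fibroblasts, fat cells, keratinocytes and liver cells are also known sources of several of these proteins.

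The 3 C1q genes lie side by side on chromosome 4 of mm10, all on the minus strand. C1qb (ENSMUSG00000036905) spans 136880129 to 136886187, C1qc (ENSMUSG00000036896) 136889804 to 136893065 and C1qa (ENSMUSG00000036887) 136895917 to 136898803. C1ra (ENSMUSG00000055172) lies on chromosome 6 from 124512632 to 124523440 on the plus strand. C4b (ENSMUSG00000073418, 34728380 to 34743882), Cfb (ENSMUSG00000090231, 34856374 to 34862518), C2 (ENSMUSG00000024371, 34862604 to 34898265) and C3 (ENSMUSG00000024164, 57203970 to 57228136) lie on the minus strand of chromosome 17. Serping1 (ENSMUSG00000023224) lies on chromosome 2 from 84765387 to 84775444 on the minus strand. RefSeq promoter sequences of GRCm38.p6, 250 bases before to 50 after the start, were given for 4 of the 9 genes. Those of C1qb (chr4:136886151-136886450, minus strand) and C1qc (chr4:136892865-136893164, minus strand) are shown because the C1q genes had like levels across libraries, with 2 motifs in capitals. These are GAGGAA, the core bound by the macrophage factor PU.1, and CCNCNCCC, a box of the kind bound by Kruppel-like factors, each searched on both strands.
C1qb promoter: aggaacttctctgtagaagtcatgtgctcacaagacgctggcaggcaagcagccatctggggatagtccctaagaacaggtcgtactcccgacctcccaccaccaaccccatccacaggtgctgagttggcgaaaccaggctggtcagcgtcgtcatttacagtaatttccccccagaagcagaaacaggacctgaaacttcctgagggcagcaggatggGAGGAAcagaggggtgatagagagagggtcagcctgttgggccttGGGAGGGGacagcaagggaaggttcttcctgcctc
C1qc promoter: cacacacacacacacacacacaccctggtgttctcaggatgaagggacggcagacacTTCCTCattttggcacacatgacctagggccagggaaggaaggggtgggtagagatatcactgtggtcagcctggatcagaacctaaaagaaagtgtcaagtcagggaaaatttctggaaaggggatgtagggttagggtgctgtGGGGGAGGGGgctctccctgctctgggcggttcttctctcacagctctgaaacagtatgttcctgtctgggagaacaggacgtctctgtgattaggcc

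C1qb held GAGGAA from 30 to 25 bases before the start, on the strand of the gene, and a match to CCNCNCCC on the opposite strand from 15 bases after it. C1qc held GAGGAA on the opposite strand and 2 overlapping matches to CCNCNCCC, printed as 1 run of capitals. Of the other promoters given, that of C1ra also held GAGGAA, and that of C3 held neither motif. GAGGAA was present in 28.3% of all 32851 RefSeq promoters of this length and CCNCNCCC in 49.5%, so the matches describe these letters and no more.

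The libraries held between 31819010 and 46445546 counts on genes, and 3 counts corresponded to 0.0646 to 0.0943 CPM. Levels are given in CPM (counts scaled to library size) with TMM scaling done within each set, so E17.5 and HFD levels do not share a scale. Klf5 itself averaged 183 ± 12.7 CPM in E17.5 libraries labelled Klf5-/- and 181 ± 18.0 CPM in E17.5 Klf5+/- libraries (SD, n = 3 each; edgeR adjusted p = 0.982). Its HFD levels were 110 ± 13.1 CPM in the libraries labelled Klf5-/- and 52.8 ± 14.1 CPM in Klf5+/- libraries (n = 2 each; edgeR adjusted p = 0.0533). The genotype labels were thus not matched by a lower Klf5 count; which exons were deleted is not stated in the labels, and every direction rests on those labels. A list of 7 keratinocyte markers had log2 fold changes all above 0 in the HFD set, with 1 called. The list held 49444 to 52530 CPM in HFD Klf5-/- libraries and 22854 to 27229 CPM in HFD Klf5+/- libraries. At E17.5 it held 52356 to 68728 against 74410 to 92578 CPM, so keratinocyte RNA was abundant throughout. Over all genes tested in the HFD set 1.48% were called higher and 4.02% lower. Markers of some other skin cells stood apart by genotype there, with Klf5-/- below, as did 32.7% of all genes tested. The 12 fibroblast markers, all below 0 with 2 called, summed to 837 to 4747 CPM in Klf5-/- libraries and 16879 to 20402 CPM in Klf5+/- libraries. The 7 endothelial markers, all below 0 with 3 called, summed to 13.0 to 62.4 against 317 to 355 CPM. A list of 9 liver plasma protein genes, of which 2 were called lower, summed to 1.45 to 5.24 against 64.3 to 72.5 CPM. Most of that Klf5+/- sum was 1 gene, Hp, at 57.6 and 63.7 CPM, while Alb had 1.89 and 3.43 CPM. Hp and Alb were picked after their values were seen. No skeletal muscle gene was called there (65.6 to 665 against 628 to 2133 CPM), although all 6 were below 0 (median log2 fold change −1.94). No melanocyte gene (128 to 232 against 166 to 204 CPM) was called either. The same held for Langerhans cell genes (38.0 to 63.2 against 48.6 to 48.9 CPM). Of these, Cd207 had 0 or 1 count in each of the 10 libraries. No marker of any list was called at E17.5, where the fibroblast list summed to 796 to 839 CPM in Klf5-/- and 629 to 726 CPM in Klf5+/- libraries. Of the 9 fibroblast markers tested at E17.5 8 were above 0 (median log2 fold change 1.59). For 5 of the 12 every Klf5-/- library lay above every Klf5+/- library, against 6.63% of all genes tested. The 5 endothelial markers tested were all above 0 (median 1.25), with sums of 2.06 to 3.68 CPM in Klf5-/- and 0.992 to 1.498 CPM in Klf5+/- libraries. The part of these lists in the complement values was not tested.

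**Figure D1:**
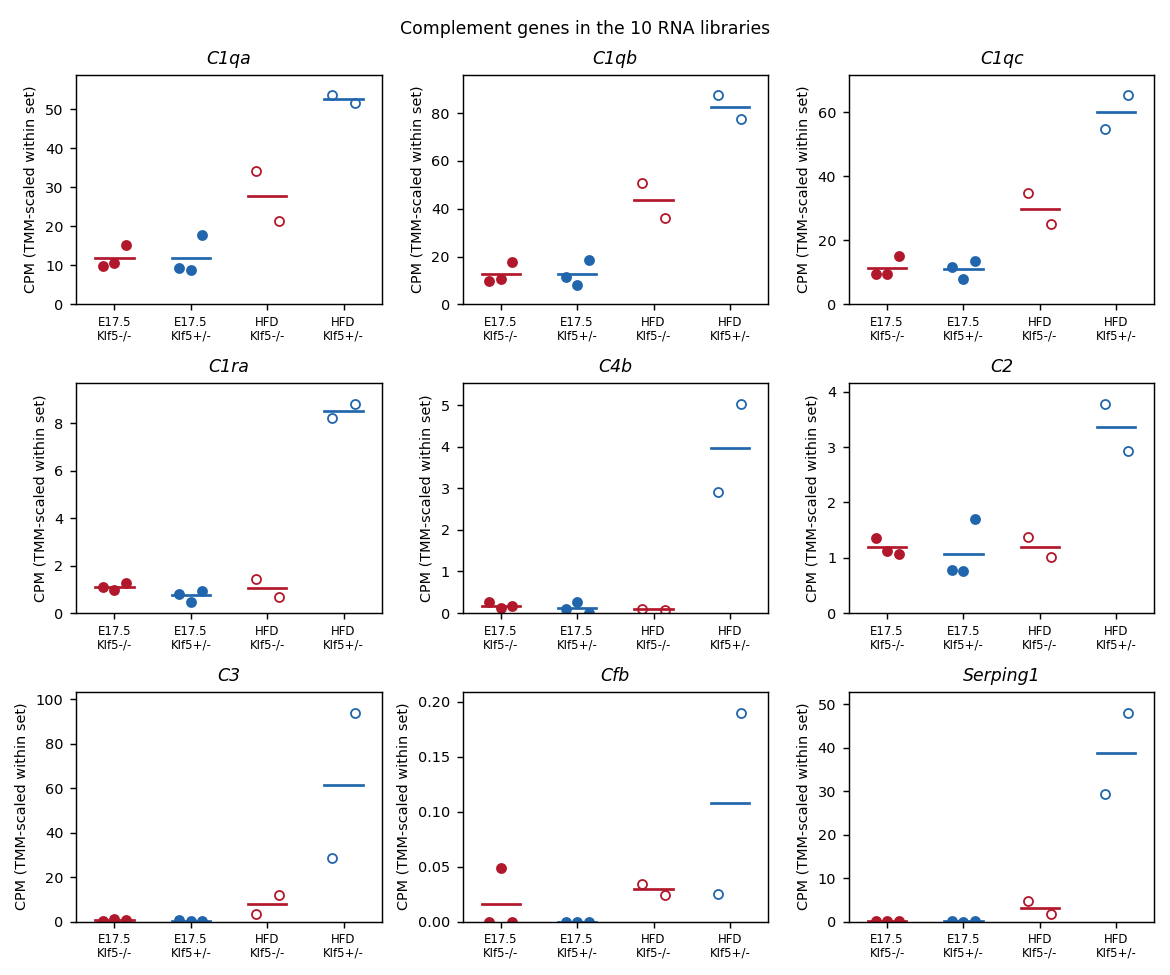
Level of each of the 9 complement genes in CPM (y axis, from 0, own scale for each gene) by set and genotype (x axis). Points are libraries, filled for E17.5 and open for HFD, and lines are group means. For 8 of the 9 genes both HFD Klf5-/- points lie below both HFD Klf5+/- points, as for 32.7% of all genes tested. Cfb alone has overlapping points there.

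The recognition subunits were the highest of the 9 genes for each kilobase of exon in all 4 groups. At E17.5 C1qa had 350, 428 and 570 counts in Klf5-/- libraries and 428, 292 and 723 counts in Klf5+/- libraries. C1qb had 342, 432 and 658 counts in Klf5-/- libraries and 526, 269 and 758 in Klf5+/- libraries, and C1qc had 330, 393 and 569 against 546, 260 and 557. In CPM the third library was the highest of each genotype for all 3 genes, and the ranges of the genotypes overlapped.

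These counts came from cells sorted as CD45-, although C1q is a product of CD45+ macrophages. Ptprc, the gene of CD45, picked out after the values were seen, had 6.68, 7.83 and 11.6 CPM in E17.5 Klf5-/- libraries and 8.46, 4.81 and 11.2 CPM in E17.5 Klf5+/- libraries. The third library was again the highest of each genotype, and the second Klf5+/- library was the lowest of the 6, as for all 3 C1q genes. The 14 macrophage markers summed to 39.1 to 63.6 CPM in E17.5 Klf5-/- libraries and 32.9 to 54.2 CPM in E17.5 Klf5+/- libraries, with no marker at 0 in either genotype. Which cells the C1q reads of these sorted libraries came from was not tested. In bulk RNA a different number of cells with C1q and a different level in each cell cannot be told apart.

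C1qa averaged 11.9 ± 2.89 CPM in E17.5 Klf5-/- and 11.9 ± 5.06 CPM in E17.5 Klf5+/- libraries (SD, n = 3 each), and the fitted log2 difference was −0.004 (SE 0.29, edgeR adjusted p = 0.999). C1qb averaged 12.6 ± 4.30 against 12.7 ± 5.39 CPM (−0.01, SE 0.34, edgeR adjusted p = 0.998) and C1qc 11.4 ± 3.28 against 11.1 ± 2.99 CPM (0.04, SE 0.25, edgeR adjusted p = 0.982). These differences were smaller than the spread between libraries.

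In the unsorted HFD epidermis the 3 C1q genes stood at 0.4998 to 0.529 of their Klf5+/- mean in Klf5-/- libraries. C1qa had 997 and 887 counts in Klf5-/- libraries and 2152 and 1901 counts in Klf5+/- libraries, or 27.8 ± 9.01 against 52.6 ± 1.32 CPM (SD, n = 2 each; log2 fold change −0.92). C1qb had 1486 and 1502 counts against 3510 and 2844 counts, or 43.6 ± 10.4 against 82.3 ± 7.09 CPM (−0.92). C1qc had 1015 and 1040 counts against 2194 and 2399 counts, or 29.9 ± 6.83 against 59.9 ± 7.51 CPM (−1.001). The first Klf5-/- library was the higher of its pair in CPM for all 3 genes. No Klf5-/- library reached a Klf5+/- library, as for 32.7% of all genes tested.

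The proportions of the 3 subunits did not separate the genotypes. Per exon length, C1qa made up 37.9 to 41.0% of the 3 transcripts in E17.5 Klf5-/- libraries and 35.0 to 42.4% in E17.5 Klf5+/- libraries, and 30.8 to 33.6% against 32.2% in the HFD set. C1qb made up 38.3 to 41.8% against 37.3 to 41.5% at E17.5 and 47.9 to 49.8% against 46.0 to 50.2% in the HFD set. C1qc was the lowest of the 3 in every library, at 17.1 to 24.0%. The ranges of the genotypes overlapped for each subunit in both sets.

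Set against other genes of macrophages, C1q gave 2 different pictures in the HFD set. There were 3.11 and 3.17 C1q counts for each count of Csf1r, the receptor of the macrophage growth factor CSF1, in Klf5-/- libraries and 4.62 and 4.01 in Klf5+/- libraries. Against the whole list of 14 macrophage markers the ratio was 0.644 and 0.898 in Klf5-/- libraries and 0.377 and 0.331 in Klf5+/- libraries. The list itself summed to 92.3 to 186 CPM in Klf5-/- libraries and 518 to 586 CPM in Klf5+/- libraries. Of the 14 markers 14 were below 0 (median log2 fold change −1.80, against −0.01 over all genes tested). The list had 4 members called lower, where 4.02% of all genes were. Among its members were F13a1, a clotting factor subunit of tissue macrophages, with 833 and 155 counts in Klf5-/- libraries and 5351 and 5180 in Klf5+/- libraries, and the mannose receptor gene Mrc1, with 847 and 526 against 3773 and 4509. In how far the genotypes stood apart, the C1q genes lay between Csf1r, with 1126 and 1082 against 1702 and 1781 counts, and these markers. Csf1r, Mrc1 and F13a1 were picked from the list after their values were seen, and the part of macrophage numbers in the C1q values was not tested. Ptprc did not separate the HFD genotypes, at 16.5 and 13.1 CPM in Klf5-/- libraries and 14.0 and 14.5 CPM in Klf5+/- libraries.

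**Figure D2:**
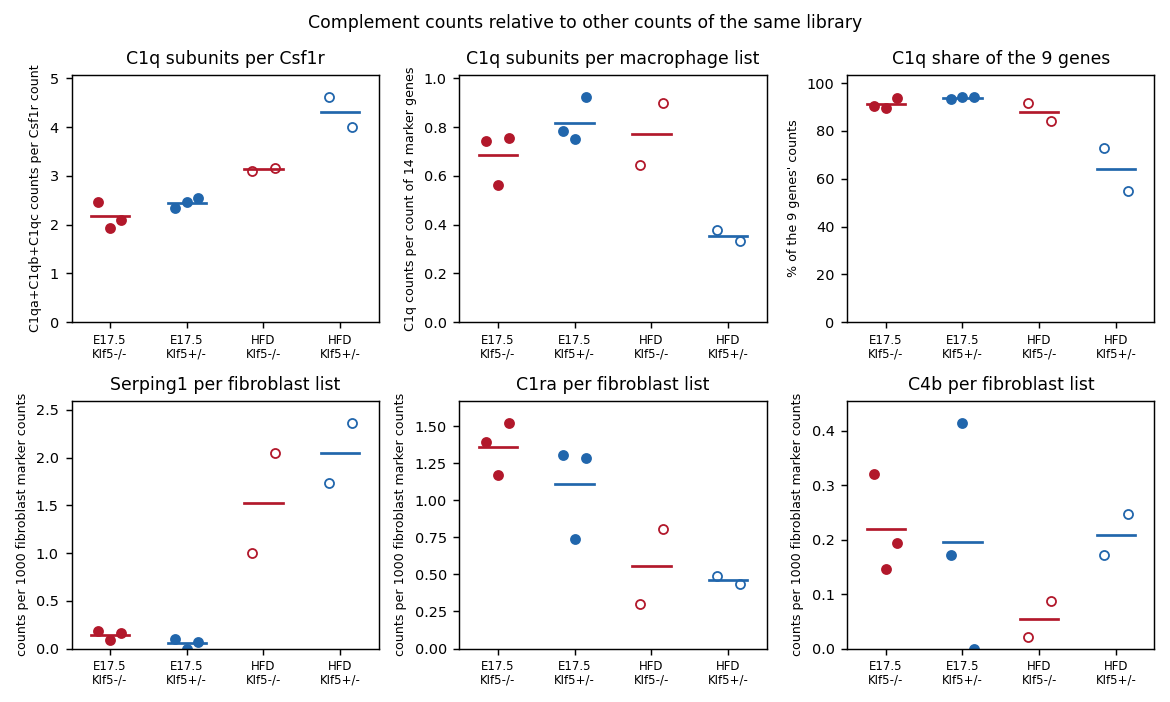
Counts of complement genes relative to other counts of the same library (y axes, from 0) by set and genotype (x axis); points are libraries, filled for E17.5 and open for HFD, and lines are group means. In the HFD set C1q per Csf1r count was 3.11 and 3.17 in Klf5-/- and 4.62 and 4.01 in Klf5+/- libraries, while C4b per 1000 fibroblast marker counts was 0.0217 and 0.0866 in Klf5-/- and 0.173 and 0.247 in Klf5+/- libraries.

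C1ra, the serine protease that C1q activates, was low at E17.5. It had 39, 40 and 47 counts in Klf5-/- libraries and 38, 16 and 38 counts in Klf5+/- libraries. In CPM all Klf5-/- libraries lay above all Klf5+/- libraries, at 1.11 ± 0.136 against 0.745 ± 0.235 CPM (SD, n = 3 each), and 14.8% of all tested genes separated in 1 direction or the other (6.63% with Klf5-/- above). The fitted log2 difference of 0.57 (SE 0.39) did not pass the test (edgeR adjusted p = 0.746). Most fibroblast markers were likewise above 0 there, and their part in the C1ra value was not tested.

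In the HFD set C1ra had 42 and 28 counts in Klf5-/- libraries and 330 and 324 counts in Klf5+/- libraries. The groups stood far apart, at 1.06 ± 0.540 against 8.51 ± 0.422 CPM (n = 2 each; log2 fold change −3.02, and −3.62 to −2.52 with 1 of the 4 libraries left out). Its near-identical neighbour C1rb had 0 counts in all 10 libraries, and reads shared by the pair could not be assigned from the count files.

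C4b and C2 supply the substrates of C1s that form the classical convertase. C4b had 3 and 3 counts in HFD Klf5-/- libraries, at the 3-count limit, and 117 and 185 counts in HFD Klf5+/- libraries. This was 0.0876 ± 0.0215 against 3.97 ± 1.498 CPM, with a log2 fold change of −5.48, the widest gap among the 9 genes. At E17.5 it had 9, 5 and 6 counts in Klf5-/- libraries and 5, 9 and 0 counts in Klf5+/- libraries and was too low for the fit. Reads that match both C4b and its near-identical copy C4a could be lost or split, so its level is less certain; C4a had 9 and 48 counts in HFD Klf5-/- libraries and 15 and 13 counts in HFD Klf5+/- libraries.

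C2 had 40 and 42 counts in HFD Klf5-/- libraries and 152 and 108 counts in HFD Klf5+/- libraries, or 1.19 ± 0.252 against 3.36 ± 0.598 CPM (n = 2 each; log2 fold change −1.497). At E17.5 it had 48, 46 and 40 counts in Klf5-/- libraries and 36, 25 and 69 counts in Klf5+/- libraries. The E17.5 ranges overlapped (1.19 ± 0.157 against 1.07 ± 0.537 CPM, n = 3 each), with a fitted log2 difference of 0.14 (SE 0.41, edgeR adjusted p = 0.964). The gene models Gm20547 and Zbtb12 overlap C2, and reads shared with them may not be counted, so its level is less certain.

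C3, the central component that every pathway cleaves, differed widely between libraries of 1 group. In HFD epidermis it had 101 and 494 counts in Klf5-/- libraries and 1146 and 3460 counts in Klf5+/- libraries. The second library was the higher in both genotypes. The groups did not overlap, with Klf5-/- below, as for 32.7% of all genes tested. They stood at 7.69 ± 5.99 against 61.3 ± 46.4 CPM (n = 2 each, log2 fold change −2.98). With 1 of the 4 libraries left out the log2 fold change was −4.10 to −1.89. Adipoq, the fat cell gene of adiponectin, and Car3, another gene of the adipocyte list, were picked after their values were seen. Adipoq had 171 and 1185 counts in Klf5-/- libraries and 2992 and 4910 counts in Klf5+/- libraries, the order of C3 by library. Car3 had 15.5 and 143 CPM in Klf5-/- libraries and 118 and 418 CPM in Klf5+/- libraries, so its groups overlapped. The 6 adipocyte markers summed to 49.4 to 219 CPM against 251 to 645 CPM, with Lep at 0 in both Klf5-/- libraries. Of 5 tested 4 were below 0 and 1 was called lower, where 4.02% of all genes were. The part of these markers in the C3 values was not tested.

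At E17.5 C3 had 7, 48 and 22 counts in Klf5-/- libraries and 22, 1 and 17 counts in Klf5+/- libraries. The ranges overlapped, and the fit gave a log2 fold change of 1.06 with an SE of 0.81 (edgeR adjusted p = 0.789). It was 0.32 without the second Klf5-/- library and 0.56 without the second Klf5+/- library, and up to 1.5006 without another library. The highest of these libraries, the second Klf5-/- library, was also the one with 68 counts of Adipoq, which had 1 and 12 in the other Klf5-/- libraries and 0 in all 3 Klf5+/- libraries.

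Cfb, the protease subunit of the alternative convertase, was not measurable as counted. It had 1 and 1 counts in HFD Klf5-/- libraries and 1 and 7 counts in HFD Klf5+/- libraries, and at E17.5 2 counts in the second Klf5-/- library and 0 in the other 5. The count files place the gene model Gm20547 (chromosome 17, 34856412 to 34882042, same strand) over 99.4% of the span of Cfb and 54.5% of the span of C2. The span of C2 in these files runs past its RefSeq start at 34882100, and Gm20547 covers nearly all of C2 from that start on. Gm20547 had 0 counts in all 10 libraries. The count files set reads aside as ambiguous between genes, at 1.07 to 1.14% of reads in the HFD set and 3.40 to 3.79% at E17.5. Which of those reads lay on Cfb or C2 was not tested. A count near 0 thus does not show that Cfb was silent, and the counts of C2 are no sure measure of its level.

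Serping1, the C1 inhibitor, was the 1 regulator among the 9 genes. In HFD epidermis it had 138 and 71 counts in Klf5-/- libraries and 1178 and 1769 counts in Klf5+/- libraries, or 3.22 ± 2.13 against 38.7 ± 13.3 CPM (n = 2 each; log2 fold change −3.60, and −4.46 to −2.99 with 1 of the 4 libraries left out). At E17.5 it had 5, 3 and 5 counts in Klf5-/- libraries and 3, 0 and 2 counts in Klf5+/- libraries. In CPM the E17.5 Klf5-/- libraries lay above the others, but at counts of 5 or fewer the gene did not enter the fit.

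Serping1, C1ra and C4b were set against the fibroblast markers of the same library, a ratio chosen after their values were seen. Serping1 had 0.996 and 2.05 counts for each 1000 fibroblast marker counts in HFD Klf5-/- libraries and 1.74 and 2.36 in HFD Klf5+/- libraries, so the genotypes overlapped. C1ra had 0.303 and 0.808 against 0.487 and 0.432 and also overlapped. C4b had 0.0217 and 0.0866 against 0.173 and 0.247, below in both Klf5-/- libraries, on 3 counts in each. At E17.5 the same list consisted mostly of Dcn and Fbln1, which held 88.2 to 96.5% of its counts, so the ratios of the 2 sets are not alike in what they divide by. The divisor also differed between the HFD genotypes, with 11.6 and 36.4% of its counts from these 2 genes in Klf5-/- libraries and 6.10 and 6.28% in Klf5+/- libraries.

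Of the 9 genes 6 were tested at E17.5, and none passed an adjusted p of 0.05, nor an unadjusted p of 0.05, in edgeR; DESeq2 also called none. Of 15092 genes 0.0861% were called (0.0331% higher and 0.053% lower). Their median log2 fold change was 0.09, against 0.01 over all genes tested. In the HFD set 8 were tested, all 8 were below 0 and C1ra, C4b and Serping1 passed the threshold, where 5.5% of 15848 genes were called, with 4.02% lower. The median of the 8 was −2.24, against −0.01 over all genes tested. Every Klf5-/- library lay below every Klf5+/- library for 8 of the 9 genes, as for 32.7% of all genes tested (60.1% separated in either direction). These HFD counts follow from the choice of the genes and support nothing. The number past the threshold depended on which library was left out, and it fell without either HFD Klf5+/- library. Each such fit leaves 1 library in a genotype. The log2 fold change then ranged from −3.62 to −2.52 for C1ra, from −5.81 to −5.02 for C4b and from −4.46 to −2.99 for Serping1.

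Ordered by level for each kilobase of exon, the 9 genes kept C1qb, C1qa and C1qc at the head in all 4 groups. In HFD Klf5-/- libraries C1qb stood at 40.2 ± 9.55, C1qa at 26.8 ± 8.69 and C1qc at 15.5 ± 3.54 CPM per kilobase, and in HFD Klf5+/- libraries at 75.9 ± 6.53, 50.7 ± 1.27 and 31.1 ± 3.90. C3 and Serping1 followed, at 1.51 ± 1.17 and 1.39 ± 0.920 in HFD Klf5-/- libraries and 12.0 ± 9.09 and 16.7 ± 5.73 in HFD Klf5+/- libraries, and these 2 could not be ordered within either group. C1ra, C2, C4b and Cfb came last in both HFD groups. C1ra and C2 overlapped in Klf5-/- libraries, and C2 and C4b overlapped in Klf5+/- libraries.

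At E17.5 the order was C1qb, C1qa, C1qc and then a wide gap. C1qb and C1qa overlapped, at 11.6 ± 3.96 and 11.5 ± 2.79 CPM per kilobase in Klf5-/- libraries and 11.7 ± 4.97 and 11.5 ± 4.88 in Klf5+/- libraries. C1ra and C2 stood at 0.407 ± 0.0498 and 0.308 ± 0.0407 in Klf5-/- libraries and at 0.272 ± 0.0859 and 0.279 ± 0.140 in Klf5+/- libraries. C1q held 89.7 to 93.7% of the counts of the 9 genes in E17.5 Klf5-/- libraries and 93.5 to 94.2% in E17.5 Klf5+/- libraries. In HFD epidermis it held 91.5 and 84.3% in Klf5-/- libraries and 72.9 and 55.0% in Klf5+/- libraries.

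Genes with the most similar profiles were found by the root mean square difference of log2(CPM + 1), centred on each gene, over the 10 libraries and among 13639 other genes. The step between the 2 sets and the genotype gap in the HFD set are part of every such profile, and a gene of low level differs little from any other flat profile. C1qc was nearest to Lyn (0.12) and Cd84 (0.14), C1qb to Rassf4 (0.21) and Fcer1g (0.22), and C1qa to Lrmp (0.16) and Id1 (0.17). C1ra was nearest to Cacna2d1 (0.13) and Ccl7 (0.15), C4b to En1 (0.19) and Ccl7 (0.20), and C2 to Bmf (0.14) and Fbxo17 (0.16). Serping1 was nearest to Tspan11 (0.19) and Pamr1 (0.20). C3 had no close match, with Cidec at 0.34 and Agt at 0.43, and Cfb was too low to compare.

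The rest of the complement system was followed as a list of 44 other genes. At E17.5 21 were tested, and none passed the edgeR test or an unadjusted p of 0.05; DESeq2 also called none. Their median log2 fold change was 0.09. The most abundant were Clu, a secreted chaperone that blocks the terminal complex, at 103 ± 5.11 against 111 ± 8.38 CPM, and Cr1l, the rodent membrane regulator Crry, at 39.8 ± 3.36 against 42.6 ± 2.41 CPM (SD, n = 3 each). Itgam, a chain of complement receptor 3, had 12.1 ± 0.937 against 12.4 ± 2.87 CPM, and the regulator Susd4 had 10.4 ± 2.36 against 8.89 ± 0.242 CPM. None of these 4 passed, with edgeR adjusted p of 0.780, 0.854, 0.976 and 0.805 in that order.

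Of the 44 genes 23 were tested in the HFD set, 4 fell and 1 rose, where 4.02% of all genes were called lower and 1.48% higher. The 4 that fell were Fcna, C1s1, Cfp and Cd55, and Clu rose. Calls on these genes depended on which library was left out and were fewer without either Klf5+/- library. In each such fit the lone library of a genotype is assumed to vary like the other genotype. The fitted differences kept their sign without either Klf5+/- library, at −2.33 and −1.76 for C1s1 and 1.27 and 1.57 for Clu. The median log2 fold change of the 23 was −0.79, with 18 below 0.

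Among 5 recognition molecules and proteases tested, 2 fell. Fcna, the ficolin A gene of the lectin pathway, had 53 and 34 counts in Klf5-/- libraries and 561 and 774 counts in Klf5+/- libraries (edgeR adjusted p = 0.0337 for a log2 difference of −3.75 with SE 0.47). In 1 fit of all 10 libraries its call was lost (edgeR adjusted p = 0.0731), with adjusted p between 7.306e-13 and 0.104 over all alternatives, DESeq2 included. C1s1, the protease that C1r activates, had 117 and 198 counts against 598 and 817 counts, or 4.40 ± 0.546 against 18.5 ± 5.18 CPM (−2.07, SE 0.30, edgeR adjusted p = 0.0339). For Fcna and C1s1 both Klf5-/- libraries lay below both Klf5+/- libraries, as for 32.7% of all genes tested.

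Of 3 other components tested, Cfp fell. This gene encodes properdin, which stabilises the alternative convertase, and had 179 and 228 counts in Klf5-/- libraries and 679 and 732 counts in Klf5+/- libraries (5.82 ± 0.444 against 18.4 ± 2.12 CPM; −1.66, SE 0.24, edgeR adjusted p = 0.0339). Cfd, the protease adipsin of fat cells that cuts factor B, had 67 and 2123 counts against 1281 and 4351 counts, with overlapping groups (−1.48, SE 1.55, edgeR adjusted p = 0.604). Its second libraries were the higher ones, as for C3 and Adipoq. Of the 7 terminal components C8g, named after its values were seen, was the 1 that could be tested, at −0.70 (edgeR adjusted p = 0.539).

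Of 9 other regulators tested, Clu rose and Cd55 fell. Clu had 8636 and 15993 counts in HFD Klf5-/- libraries and 4619 and 5202 counts in HFD Klf5+/- libraries, or 341 ± 63.9 against 128 ± 18.7 CPM (n = 2 each; 1.41, SE 0.22, edgeR adjusted p = 0.0358). Cd55, which speeds convertase decay on cell surfaces, had 632 and 786 counts against 1606 and 1816 counts (−1.14, SE 0.20, edgeR adjusted p = 0.041). Cr1l stood at 48.8 ± 2.07 against 51.6 ± 4.85 CPM (edgeR adjusted p = 0.795). None of 5 receptors passed.

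**Figure D3:**
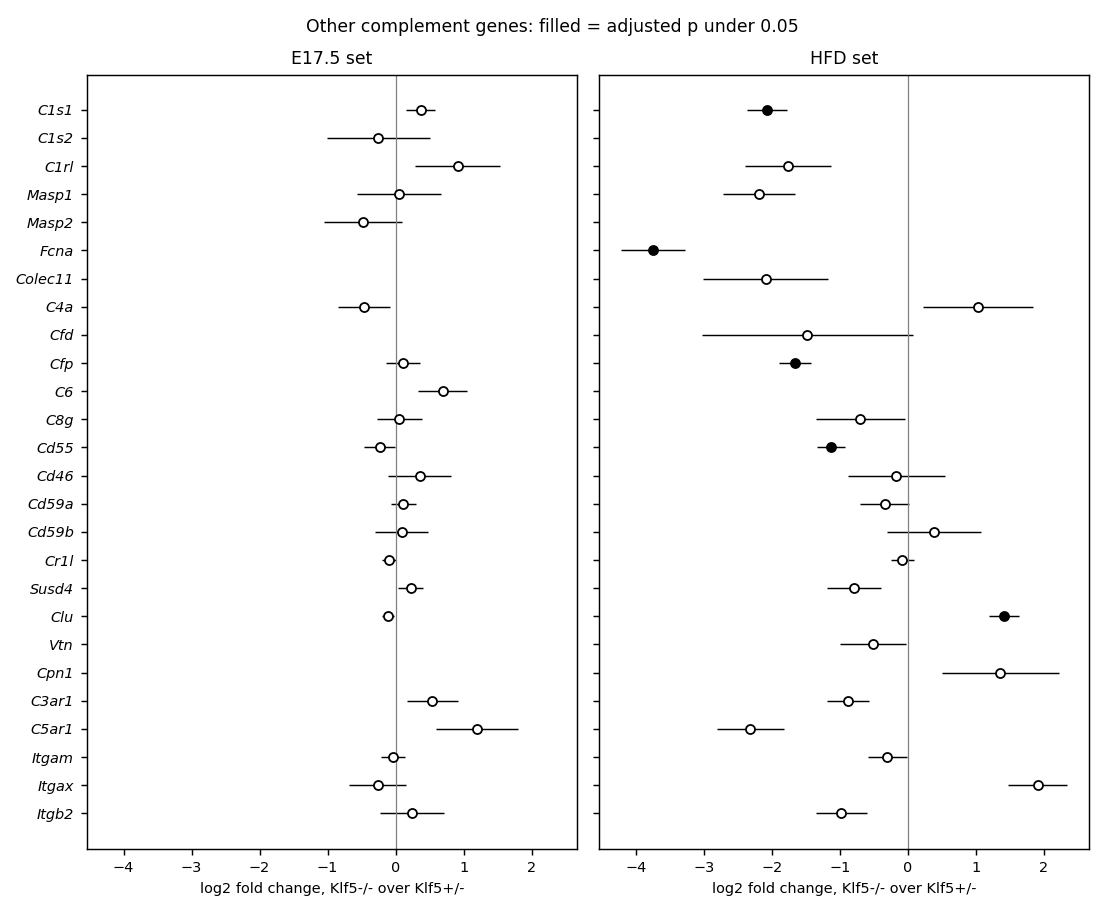
Log2 fold change of Klf5-/- over Klf5+/- (x axis) with its SE (bars) for each tested gene of the 44 other complement genes (rows), at E17.5 on the left and in the HFD set on the right. Filled points passed an edgeR adjusted p of 0.05, which 0 genes did at E17.5 and 5 did in the HFD set (Fcna, C1s1, Cfp and Cd55 below 0 and Clu above 0).

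In chromatin of wild-type E17.5 epithelium the start sites of the 9 genes were nearly empty of peaks. Fold enrichments and q values of peaks are the authors'. No gene of the 9 had a KLF5 peak within 1 kb of its start, where 20.1% of 13154 protein-coding genes tested at E17.5 had one. An H3K27ac peak lay there for 1 of 9 (61.6% of those genes) and an ATAC peak for 1 of 9 (82.6% of those genes), in both cases at C2. The comparison genes passed a filter on expression at E17.5, and 3 of the 9 did not. Of the 44 other complement genes, 21 of which passed it, 1 had a KLF5 peak within 1 kb, 4 an H3K27ac peak and 13 an ATAC peak. Cd55 was the gene with the KLF5 peak and had peaks of the other assays too. Their part in its RNA level was not tested.

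The peaks at C2 lie where its span in the count files meets the start of Ehmt2, a histone methyltransferase gene on the plus strand at 34898469. The ATAC peak ran from 34898090 to 34898558 (fold enrichment 7.77) and the H3K27ac peak from 34898942 to 34899389 (2.87). RefSeq places the start of C2 at 34882100, 16165 bases inside that span. With RefSeq starts, an alternative chosen after seeing the data, 0 of 9 genes had a peak of any of the 3 assays within 1 kb. The shares of 13151 protein-coding genes were then 19.7% for KLF5, 60% for H3K27ac and 80.4% for ATAC. C2 also overlaps Zbtb12 on the other strand, and the strand setting of the counting is not stated in the labels.

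The nearest KLF5 peak lay 10824 bases from the start of C1ra, 12085 from Cfb, 19663 from C3 and 32781 from C2. It lay 59865 bases from Serping1, 92953 from C4b and at least 266003 from the C1q genes. The peak near Cfb (chromosome 17, 34850074 to 34850433, fold enrichment 5.74) sat at the shared start of Nelfe and Skiv2l, with ATAC (34849789 to 34850646, 8.68) and H3K27ac (34850198 to 34850636, 4.81) peaks over it. Upstream of C3, KLF5 peaks at 57247799 to 57248021 (3.48) and 57249231 to 57249519 (3.98) sat at the starts of Gpr108 and Trip10. The KLF5 peak nearest to C1ra (chromosome 6, 124501521 to 124501808, 3.76) lay within C1rl, a neighbouring gene of the same protease family. For the C1q genes the nearest H3K27ac peak was 49672 bases from C1qb. With 1 library for each assay these positions have no replicate check.

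**Figure D4:**
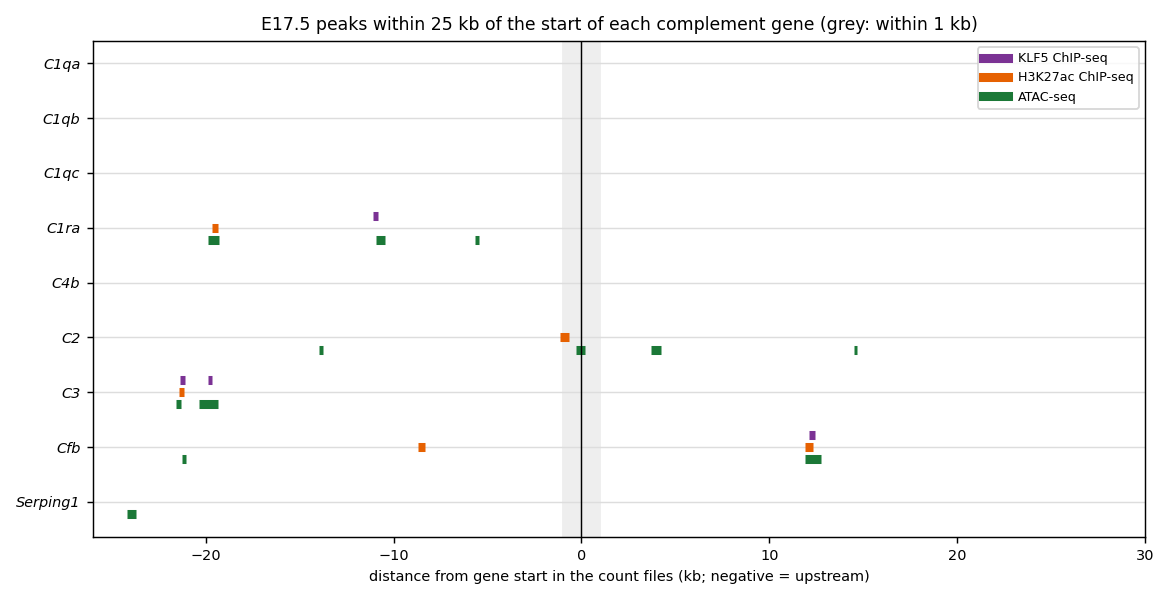
Peaks of KLF5, H3K27ac and ATAC-seq from E17.5 epithelium within 25 kb of the start of each complement gene (rows), by distance from the start in kb (x axis, negative upstream); bars have the length of the peak. C1qa, C1qb, C1qc and C4b have no peak in this window, and the 1 gene with a peak in the grey band within 1 kb is C2.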

How the data were processed

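The authors deposited raw counts of reads per Ensembl gene for each of the 10 RNA libraries. STAR 2.6.0b, HTSeq and the build mm10 are named in the submitters' processing notes, without strand setting or counting mode. The deposited RPKM values equal counts over exon length and all reads of the file and were not tested. MACS2 is named there for the peaks, without control or threshold; the deposited fold enrichment (a ratio) and −log10 q of each peak are the authors' values. HaCaT peak lists (hg19) and an IgG sample were not used here.

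Symbols and spans came from the HFD files. Reads not assigned to a single gene, 13.4 to 16.9% of reads, were left out, among them the ambiguous reads and those without a unique alignment. E17.5 and HFD libraries were fitted apart by edgeR 4.0.16 under R 4.3.3 (TMM scaling, filterByExpr, robust quasi-likelihood test, Benjamini-Hochberg adjustment over all genes, threshold 0.05). The fit was also run on simulated counts with as many planted rises as falls. The HFD calls were mostly lower, so that run does not show how the fit behaves there. Alternatives were DESeq2 1.42.0, library totals, other filters, a replicate block, 1 fit of all 10 libraries and leaving out each library. The 9 genes and all lists were chosen with earlier results of these data known. Text names the 9 genes, Klf5, called and most abundant other complement genes and the 2 nearest profiles; exceptions are marked, and 1 gene of the pathway lists is not reported here. A start is the outermost base of a gene's span, and 1 base of overlap counted.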

Additional observations from a re-analysis of the deposited data

Results flagged for a closer look

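For 7 of 26 other complement genes the genotype effect differed between the sets, in a contrast chosen after seeing the data and fitted over all 10 libraries with edgeR, where 14.7% of 17260 genes passed. Sorting, tissue preparation and kit also differ between the sets and cannot be told apart from the set. The differences below are HFD minus E17.5 on the log2 scale. Clu, which rose in HFD Klf5-/- libraries, differed by 1.54 (edgeR adjusted p = 0.00267). C1s1 differed by −2.43 (edgeR adjusted p = 0.00342), Cfp by −1.76 (0.0111) and Cd55 by −0.89 (0.0404). The other 3 were not called within a set, and Masp2 was too low for the HFD fit. C5ar1, the C5a receptor, differed by −3.50 (edgeR adjusted p = 0.0192), with 23 and 21 counts in HFD Klf5-/- and 109 and 137 in HFD Klf5+/- libraries. Part of this came from low E17.5 counts, at 16, 26 and 36 in Klf5-/- and 16, 3 and 18 in Klf5+/- libraries. The E17.5 log2 fold change of C5ar1 was 1.19 (edgeR adjusted p = 0.572). Itgax, a chain of complement receptor 4, differed by 2.18 (0.0361), with 149 and 143 counts in HFD Klf5-/- and 51 and 37 in HFD Klf5+/- libraries. Masp2, a lectin-pathway protease, differed by 5.90 (0.0261), a fitted value that depends on the prior count and is no bound, with 32 and 11 in HFD Klf5-/- and 0 and 1 in HFD Klf5+/- libraries.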

How the results depend on the processing

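At E17.5 none of the 9 complement genes and none of the 44 others passed under any alternative run. The E17.5 log2 fold changes of C1qa and C1qb lay near 0 and changed sign on library totals (0.0546 and 0.0471) and with a replicate block (0.0444 and 0.024). With 1 library left out they ranged from −0.22 to 0.40 and from −0.32 to 0.37, those of C1qc from −0.22 to 0.22 and of C2 from −0.0545 to 0.63. E17.5 calls over all genes numbered 13, against 6 on library totals, 447 with DESeq2, 237 with no low-count filter, 2 with a minimum mean of 1 CPM, 42 with the replicate block, 3 with all 10 libraries in 1 fit and 0 to 513 with 1 library left out (513 without the third Klf5-/- library). HFD calls numbered 872, against 1340, 2871 and 2396 under the first 3 of these, 1520 with the replicate block, 3672 in 1 fit and 19 to 5389 with 1 library left out. Library totals put the HFD median of all genes at −0.23, against −0.01, and gave 138 higher and 1202 lower calls, in place of 235 and 637. Of the 9 genes 3 passed in the HFD set, against 6 on library totals, 8 with DESeq2, 5 with no filter, 6 with the replicate block, 5 in 1 fit and 0 to 7 with 1 library left out. Of the other complement genes 5 passed, against 9 with DESeq2, 9 with no filter, 8 in 1 fit, where Fcna lost its call, and 0 to 10 with 1 library left out. Every HFD direction of the 8 genes tested was kept under each alternative. Those directions, and the number of the 9 genes past the threshold in the HFD set, follow from their choice and support nothing. Same-numbered libraries did not deviate together in every pair (correlations 0.08, −0.12 and 0.31 at E17.5), and the 2 HFD pairs, at 0.23, are too few to show pairing and give 1 value by construction, so the paired values are given here alone. H3K27ac peaks within 1 kb of a start went to 0 of the 9 genes with −log10 q of 10 or more (40.7% of protein-coding genes tested). With RefSeq starts H3K27ac and ATAC peaks both went to 0 of the 9 (60% and 80.4% of those genes). Cfb in both sets and C4b and Serping1 at E17.5 had at most 9 counts in a library, too few to show a difference.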
